A study of Mus musculus with 14 samples.

Results

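The microRNAs miR-31 and miR-21, which are linked to regeneration and injury of epithelia, were followed across small intestinal cell populations of the mouse. They were chosen by name, as the entries at the annotated start whose names belong to these hairpins. Of 2030 miRNA entries in all, 534 stand at the annotated start, and 4 of those belong to the hairpins: mmu-mir-31-5p and mmu-mir-21-5p, written miR-31-5p and miR-21-5p from here on, and the 3p arm of each. The 5p arms carry the results, and the 22 further entries of the same hairpins that start at a shifted position are described after them.

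A microRNA is cut from a hairpin precursor that yields a 5p and a 3p arm, and one arm usually persists in an Argonaute protein. There its seed, bases 2 to 8, pairs with sites in messenger RNAs and represses them. In the mouse intestine, miR-31 is known to increase in crypts that regenerate after injury and to act on the Wnt, BMP and TGF-beta pathways in stem cells. miR-21 is known as an abundant microRNA that increases in inflamed and injured epithelium, and Pdcd4 is among its known targets.

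The mice were of the C57BL/6J strain with a Sox9-eGFP transgene, whose fluorescence reports Sox9 activity, the tissue was small intestine, and no treatment, age or further allele is given in the sources used here. Cells were sorted by fluorescence into High, Negative, Sublow and Low populations with 3 libraries each, and 2 libraries came from Non-sorted cells. As background, this reporter places enteroendocrine cells in High, differentiated cells in Negative, transit-amplifying progenitors in Sublow and crypt stem cells in Low. In the labels, libraries of the same replicate number share a code across the groups, but nothing says what it marks or whether the libraries of a group came from separate animals, so the p-values speak for the spread among the sequenced libraries, which may be technical.

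The mature sequences below, with the seed in capitals, show that the members share no seed with each other. They were taken from RefSeq for GRCm38.p6 and run 5′ to 3′.
miR-31-5p: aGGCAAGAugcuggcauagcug
miR-31-3p: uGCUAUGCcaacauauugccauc
miR-21-5p: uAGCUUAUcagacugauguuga
miR-21-3p: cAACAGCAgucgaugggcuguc
The table's name miR-21 was matched to miR-21a through RefSeq's synonyms. Of 1679 mature mouse names searched, 0 others have the seed of miR-31-5p, and 1 other, miR-21c, has that of miR-21-5p. miR-21c is not among the entries analysed here.

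In GRCm38.p6, miR-31-5p lies at chr4:88910614-88910635 on the minus strand. Its hairpin Mir31, at chr4:88910557-88910662, lies in exon 3 of the long non-coding RNA gene AL805899.1 (chr4:88909855-88938521, minus strand). miR-21-5p lies at chr11:86584120-86584141 on the minus strand. Its hairpin Mir21a, at chr11:86584067-86584158, lies in the UTR part of exon 12 of the protein-coding gene Vmp1 (chr11:86583865-86683836, minus strand). Values below are in RPM, each library having been scaled to a total of 1e+06 across its miRNA entries.

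The libraries held an estimated 1.89 to 16.4 M reads (M, 1e+06), and both members were deeply read in all 14. miR-31-5p had an estimated 15.1 to 240.4 k reads (k, 1e+03) and miR-21-5p 22.6 to 544.3 k. The estimated counting error was thus at most 0.814% and 0.665% of a value, which covers counting error only. The summed enteroendocrine markers, 3 of 3 in the table, were 151003 to 172443 RPM in High, 2551 to 3634 in Negative, 24003 to 25588 in Sublow, 82016 to 106946 in Low and 13212 to 23259 in Non-sorted libraries. The 8 epithelial markers summed to 197246 to 230584 RPM in High, 558463 to 559871 in Negative, 424333 to 437263 in Sublow, 215198 to 244726 in Low and 490391 to 582433 in Non-sorted libraries. Over all libraries, miR-215-5p alone ranged from 36188 to 389349 RPM and miR-192-5p from 81442 to 139528, but miR-141-3p only from 848 to 4421. The sum thus follows its most abundant entries and does not measure how epithelial a population is. The 8 haematopoietic markers summed to 42.0 to 103.5 RPM in High, 16.5 to 136.9 in Negative, 21.4 to 188.3 in Sublow, 54.3 to 242.4 in Low and 17.4 to 20.1 in Non-sorted libraries. Of these, miR-142-3p, miR-451 and miR-144-3p were listed at 0 in all 14. The rest were above 0 in some or all libraries, with miR-142-5p in 7 (up to 32.3 RPM), miR-150-5p in 7 (up to 74.2) and miR-155-5p in all 14 (up to 103.1). All marker lists hold annotated-start entries only, so a listed 0 does not show absence. The mesenchymal list, 6 of 7 in the table, summed to 31.4 to 54.0 RPM in High, 21.8 to 42.2 in Negative, 51.8 to 76.7 in Sublow, 35.2 to 99.4 in Low and 43.7 to 63.8 in Non-sorted libraries, with miR-145-5p at 0 in all 14. The 2 endothelial markers summed to at most 17.1 RPM in any library. The pluripotent list, 11 entries of miR-290 to miR-295, reached higher sums. These were 0 to 2648 RPM in High, 0 to 2479 in Negative, 0 to 2368 in Sublow and 0 to 1172 in Low libraries. Both Non-sorted libraries held such entries, at 1881 to 2110 RPM. The part of these marker levels in the members' values was not tested.

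miR-31-5p was highest in Negative and Sublow cells and lowest in High and Low cells. It measured 7847, 7257 and 7993 RPM in the High libraries and 15794, 16571 and 15002 RPM in the Negative libraries. The Sublow libraries held 13534, 12174 and 12386 RPM, and the Low libraries 7693, 6400 and 7168 RPM. The Non-sorted libraries differed from each other, with 14222 and 8830 RPM. High and Low values overlapped, while every Negative and Sublow value lay above every High and Low value. The means were 7699 ± 389.8 RPM in High, 15789 ± 785 in Negative, 12698 ± 731 in Sublow and 7087 ± 650.4 in Low cells (SD, n = 3 each), and 11526 ± 3813 in Non-sorted cells (SD, n = 2). miR-31-5p thus made up 0.770% of the total in High, 1.58% in Negative, 1.27% in Sublow, 0.709% in Low and 1.15% in Non-sorted cells.

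miR-21-5p, the more abundant member in every library, peaked in Sublow cells and was lowest in High cells. It measured 10454, 10270 and 11960 RPM in the High libraries and 23179, 27102 and 30176 RPM in the Negative libraries. The Sublow libraries held 33201, 37997 and 37996 RPM, and the Low libraries 19810, 30888 and 24211 RPM. The Non-sorted libraries held 23417 and 21367 RPM. Every High value lay below every other value and every Sublow value above every other, while the Low values spread across the Negative and Non-sorted ranges. The means were 10895 ± 927 RPM in High, 26819 ± 3507 in Negative, 36398 ± 2768 in Sublow and 24970 ± 5578 in Low cells (SD, n = 3 each), and 22392 ± 1449 in Non-sorted cells (SD, n = 2). The share of the total was 1.09% in High, 2.68% in Negative, 3.64% in Sublow, 2.50% in Low and 2.24% in Non-sorted cells.

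**Figure D1:**
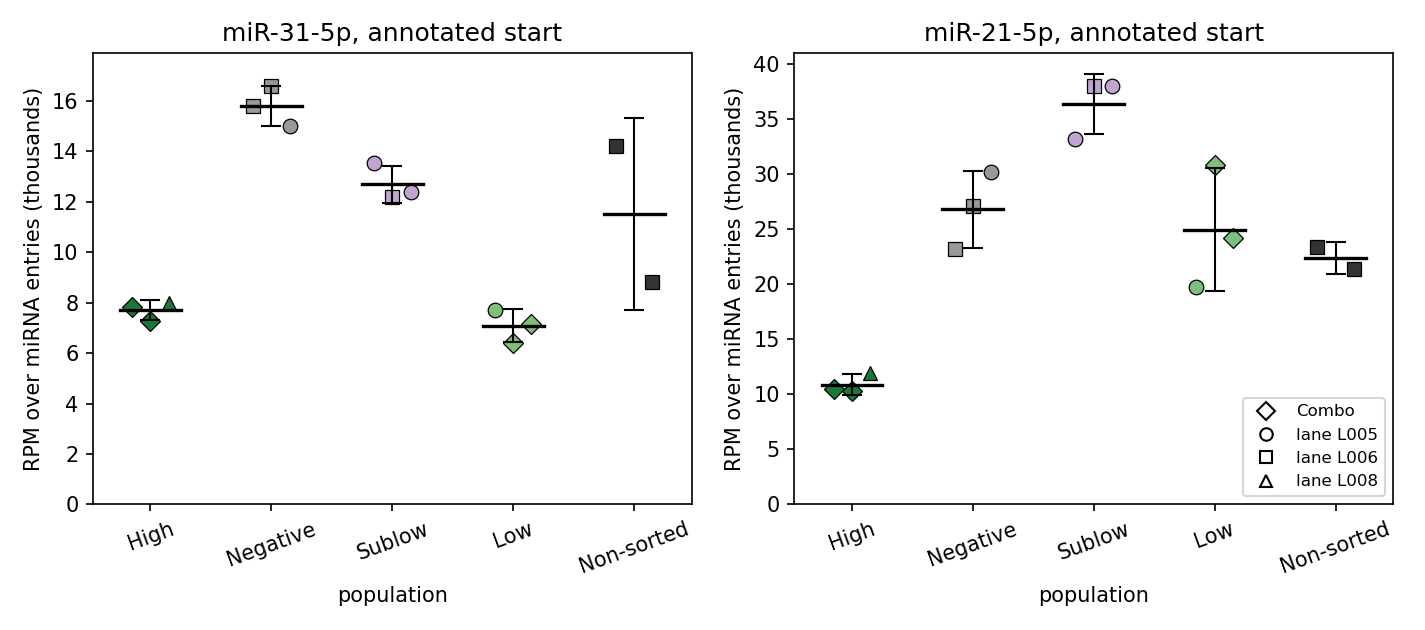
Level of miR-31-5p (left) and miR-21-5p (right), in k RPM (k, 1e+03) over miRNA entries, in each library of the High, Negative, Sublow, Low and Non-sorted groups; points are libraries with their lane code by shape, bars the mean and whiskers 1 SD. miR-31-5p stands at 12174 RPM or more in every Negative and Sublow library and at 7993 RPM or less in every High and Low library, while miR-21-5p is at 11960 RPM or less in the High libraries and at 33201 RPM or more in the Sublow libraries.

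Both members ranked among the most abundant of the 534 annotated-start entries. miR-31-5p held rank 25 to 27 in High, 10 to 11 in Negative, 19 to 22 in Sublow, 30 to 32 in Low and 12 to 17 in Non-sorted libraries. miR-21-5p held rank 21 to 24 in High, 5 to 7 in Negative, 5 to 6 in Sublow, 7 to 14 in Low and 7 in both Non-sorted libraries. The highest group mean was 2.23 times the lowest for miR-31-5p and 3.34 times for miR-21-5p. The spread between libraries of a sorted population, as a coefficient of variation, was 4.97 to 9.18% for miR-31-5p and 7.61 to 22.3% for miR-21-5p, with Low the most variable of the 4 for both.

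Differences among populations were tested with limma on log2(value + 1) over 588 entries, with Benjamini-Hochberg adjustment and a threshold of 0.05. Among the 4 sorted populations both members differed (adjusted p = 3.53e-05 for miR-31-5p and 4.25e-06 for miR-21-5p), as did 72.3% of all tested entries, so most of the table shares this result. Since a library is a mixture of cells, a lower value cannot tell fewer cells with the microRNA from less of it per cell. Whether ranges overlap is given below as description only, because no share of all entries without overlap stands beside it.

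In High against Low cells, where 28.1% of entries passed the test and 20.1% were lower, miR-21-5p fell and miR-31-5p did not pass. miR-21-5p was 2.29-fold lower in High cells, a log2 difference of -1.18 (95% interval -1.50 to -0.85, adjusted p = 0.000123). For miR-31-5p the log2 difference was 0.12 (95% interval -0.19 to 0.44, adjusted p = 0.593), and its ranges overlapped. The code Combo stands in the place of a lane number for 2 High and 2 Low libraries. It is undefined, so whether they shared a lane is not known. Among them the log2 differences were -1.40 for miR-21-5p and 0.16 for miR-31-5p.

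In Sublow against Low cells both members rose, in a comparison where 34.7% of entries passed and 10.4% were higher. miR-31-5p was 1.79-fold higher in Sublow cells (log2 difference 0.84, 95% interval 0.53 to 1.16, adjusted p = 0.000747). miR-21-5p was 1.46-fold higher (0.56, 0.24 to 0.89, adjusted p = 0.0115). The ranges did not overlap for either member, and within lane L005 (2 Sublow libraries, 1 Low) the differences were 0.75 for miR-31-5p and 0.84 for miR-21-5p. With a lane term in the fit, miR-31-5p no longer passed (0.72, adjusted p = 0.0553), while miR-21-5p did (0.90, adjusted p = 0.00999).

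In Negative against Low cells, where 66.0% of entries passed and 16.5% were higher, miR-31-5p rose and miR-21-5p did not pass. miR-31-5p was 2.23-fold higher in Negative cells (log2 difference 1.16, 95% interval 0.85 to 1.47, adjusted p = 2.21e-05), with no overlap. miR-21-5p differed by 0.12 (-0.21 to 0.44, adjusted p = 0.479), with overlapping ranges. In lane L005, with 1 library of each, the differences were 0.96 for miR-31-5p and 0.61 for miR-21-5p.

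Negative and Sublow cells differed less, in a comparison where 35.5% of entries passed. miR-21-5p was 1.36-fold lower in Negative cells (log2 difference -0.45, 95% interval -0.77 to -0.12, adjusted p = 0.0348), with no overlap. This call did not hold without Negative 1 (-0.35, adjusted p = 0.147), Negative 2 (-0.46, 0.0729), Sublow 2 (-0.41, 0.0889) or Sublow 3 (-0.41, 0.104). The within-lane differences of miR-21-5p were -0.24 in L005 and -0.60 in L006. miR-31-5p stood 1.24-fold higher in Negative cells with no overlap but did not pass (0.31, adjusted p = 0.114), and was 0.21 in L005 and 0.41 in L006. With either Non-sorted library left out of the fit, miR-31-5p passed (0.31, adjusted p = 0.0124 in both cases). The estimate was unchanged, while its standard error fell from 0.143 to 0.084. The fit pools the spread of all groups, and the 2 Non-sorted libraries differed widely in miR-31-5p (coefficient of variation 33.1%). Every limma test of miR-31-5p between sorted populations uses that pooled spread.

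High cells held less of both members than Sublow cells, where 50.5% of entries passed and 22.4% were lower. miR-21-5p was 3.34-fold lower in High cells (log2 difference -1.74, 95% interval -2.07 to -1.41, adjusted p = 2.20e-06) and miR-31-5p 1.65-fold lower (-0.72, -1.03 to -0.41, adjusted p = 0.00132). Against Negative cells, where 66.3% passed and 22.4% were lower, miR-21-5p was 2.46-fold lower in High cells (-1.29, -1.62 to -0.97, adjusted p = 1.09e-05). miR-31-5p was 2.05-fold lower (-1.04, -1.35 to -0.72, adjusted p = 5.04e-05). No ranges overlapped. High shares no lane code with Sublow or Negative, so no within-lane value exists. A lane term links them through Low, but only if the undefined Combo is taken as a lane. With it, miR-31-5p no longer passed (-0.56, adjusted p = 0.209 against Sublow, and -0.87, adjusted p = 0.0544 against Negative). miR-21-5p did pass (-2.30, adjusted p = 0.000280, and -1.89, adjusted p = 0.000478).

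In order of mean level, miR-31-5p was highest in Negative cells, then in Sublow, Non-sorted, High and Low cells. Of those neighbours, High and Non-sorted differed by the test, and the other 3 steps did not pass it. miR-21-5p was highest in Sublow cells, then in Negative, Low, Non-sorted and High cells. Its steps between Negative and Low and between Low and Non-sorted did not pass, and the first and last steps did. Over the 6 pairs of sorted populations, miR-31-5p passed in 4 and miR-21-5p in 5.

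Against Non-sorted cells, High cells were lower in both members, in a comparison where 57.7% of entries passed. The log2 difference was -1.04 for miR-21-5p (adjusted p = 0.000247) and -0.54 for miR-31-5p (adjusted p = 0.0120). Without Non-sorted 1, the library with 14222 RPM, the difference of miR-31-5p was -0.20 (adjusted p = 0.187), and without Non-sorted 2 it was -0.89. In Negative cells, where 3.74% of entries passed, neither member did (0.49 for miR-31-5p, adjusted p = 0.149, and 0.25 for miR-21-5p, adjusted p = 0.660). Without Non-sorted 1, miR-31-5p passed there (0.84, adjusted p = 0.00181), and without Non-sorted 2 it was 0.15 (adjusted p = 0.843).

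Sublow cells, where 24.0% of entries passed against Non-sorted, were higher in miR-21-5p (0.70, adjusted p = 0.0123), but not with Non-sorted 2 left out (0.63, adjusted p = 0.0995). miR-31-5p overlapped there (0.18, adjusted p = 0.446), passing without Non-sorted 1 (0.52, adjusted p = 0.0122) and standing at -0.17 without Non-sorted 2. Low cells, where 60.4% passed, were lower in miR-31-5p (-0.67, adjusted p = 0.00399). That difference was -0.32 (adjusted p = 0.0418) without Non-sorted 1 and -1.01 without Non-sorted 2. miR-21-5p did not pass in Low against Non-sorted (0.13, adjusted p = 0.481). With a lane term miR-31-5p passed in neither High (-0.38, adjusted p = 0.474) nor Low cells (-0.53, adjusted p = 0.196) against Non-sorted.

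These values depend on what else fills a library, because each is a share of a fixed total. miR-215-5p alone took 4.04 ± 0.62% of the total in High, 34.0 ± 0.50% in Negative, 24.3 ± 0.94% in Sublow and 4.85 ± 0.44% in Low cells (SD, n = 3 each), and 34.4 ± 6.48% in Non-sorted cells (SD, n = 2). Rescaling the libraries by the median ratio over entries moved the members by -0.54 to 0.87 on the log2 scale between sorted populations. The median of all entries, for example, was -0.90 in Negative against Low before rescaling and -0.09 after it. After rescaling, miR-31-5p passed in all 6 pairs of sorted populations, including High against Low (0.45, adjusted p = 0.0159) and Negative against Sublow (0.81, adjusted p = 0.000322). The share of all entries that passed after rescaling is not given for these pairs, so whether the result is particular to miR-31-5p was not tested. Negative against Low came to 2.03 for miR-31-5p and 0.99 for miR-21-5p (adjusted p = 7.40e-05), a call that miR-21-5p lacked before. The difference of miR-21-5p between Negative and Sublow cells was lost (0.05, adjusted p = 0.856).

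Against Non-sorted cells, rescaling gave miR-21-5p -0.66 in Low (adjusted p = 0.00519) and 0.28 in Sublow (adjusted p = 0.265). miR-31-5p stood at 0.57 in Negative (adjusted p = 0.0292) and -0.24 in Sublow cells (adjusted p = 0.291). The lower level of miR-21-5p in High cells held on both scales, at -0.85 against Low, -1.79 against Sublow and -1.84 against Negative after rescaling. The higher level of miR-31-5p in Sublow and Negative than in Low cells also held on both.

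**Figure D2:**
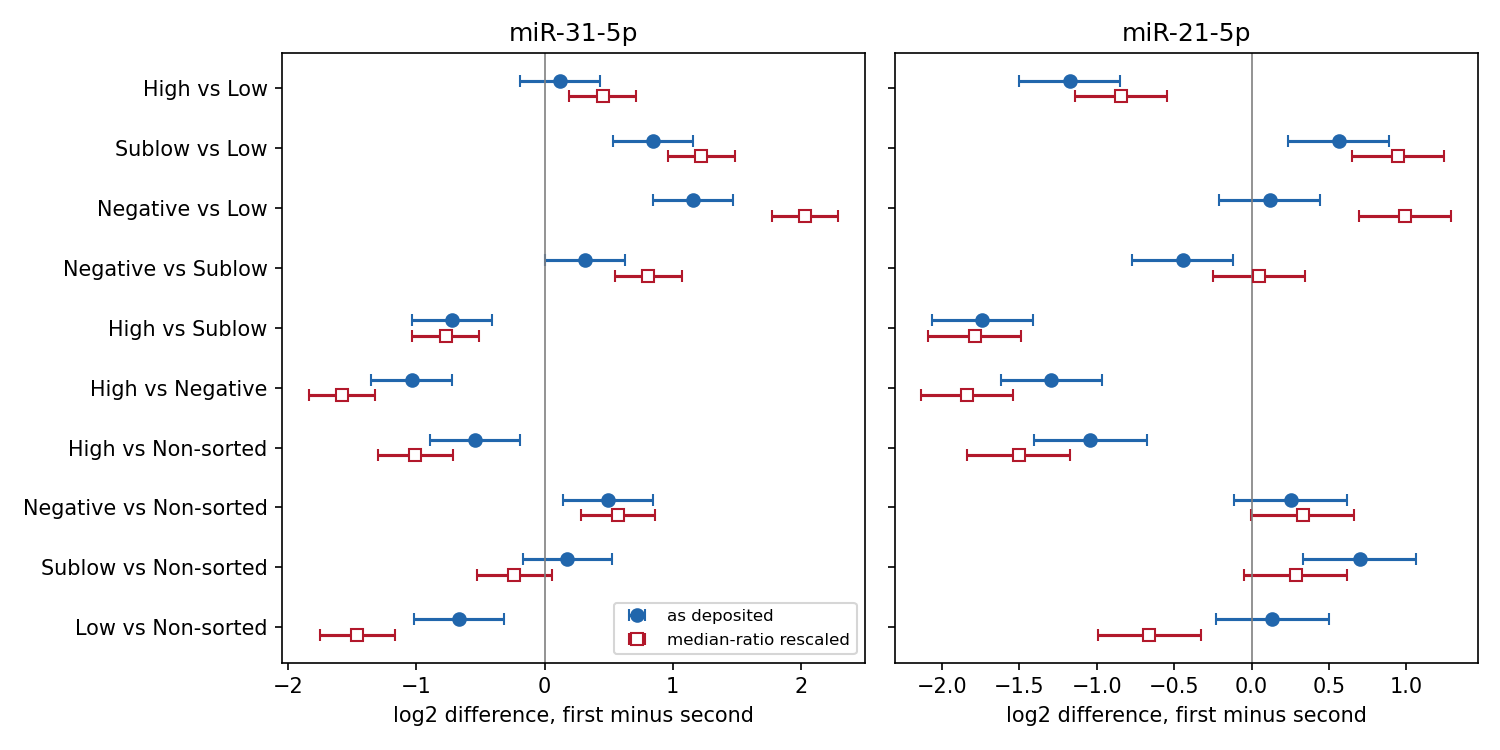
Log2 difference (first group minus second) of miR-31-5p (left) and miR-21-5p (right) in 10 comparisons; filled circles are values as deposited, open squares the same after median-ratio rescaling, and whiskers are 95% intervals from limma. miR-21-5p lies left of 0 in the 4 comparisons with High first on both scales, and Negative vs Sublow moves to -0.45 and 0.05.

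Since both members are read in the same library, their ratio does not depend on such scaling. For each read of miR-21-5p, the High libraries held 0.751, 0.707 and 0.668 of miR-31-5p, the Negative libraries 0.681, 0.611 and 0.497. The Sublow libraries held 0.408, 0.320 and 0.326, and the Low libraries 0.388, 0.207 and 0.296. The Non-sorted libraries held 0.607 and 0.413. High and Negative ratios overlapped, Sublow and Low ratios overlapped, and every value of the first pair lay above every value of the second.

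The ratio averaged 0.709 ± 0.041 in High, 0.597 ± 0.093 in Negative, 0.351 ± 0.049 in Sublow and 0.297 ± 0.091 in Low cells (SD, n = 3 each), and 0.510 ± 0.137 in Non-sorted cells (SD, n = 2). An exact permutation test over all 369600 assignments of the 12 sorted libraries gave p = 0.00188, or 0.00565 adjusted over 3 measures tested this way. High exceeded Low 2.46-fold and Sublow 2.03-fold, and Negative exceeded Low 2.06-fold and Sublow 1.69-fold. An exact permutation test of a single pair, 3 against 3 libraries, cannot go below p = 0.10, so no pair was tested alone. Within the undefined code Combo, the log2 ratio differed by 1.56 between High and Low. Within lanes, it differed by 0.36 between Negative and Low (L005), and by 0.45 and 1.01 between Negative and Sublow (L005 and L006). Sublow and Low differed by -0.09 in L005.

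**Figure D3:**
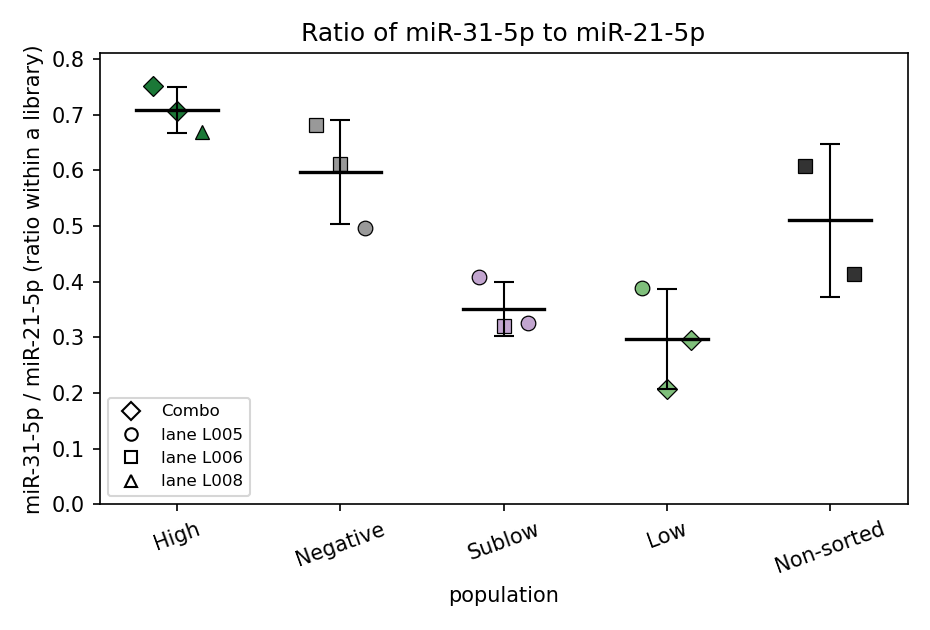
Ratio of miR-31-5p to miR-21-5p within each library (linear, no unit) for the High, Negative, Sublow, Low and Non-sorted groups; points are libraries with their lane code by shape, bars the mean and whiskers 1 SD. The High and Negative libraries lie at 0.497 or above, and the Sublow and Low libraries at 0.408 or below.

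A further 22 entries of these hairpins carry a shifted start, and 6 of them, all 5p, were abundant enough to test. A start moved by 1 base changes the seed. The annotated sequences are printed again, 5′ to 3′, with capitals at their bases 3 to 9, which are bases 2 to 8 of a +1 form, since that form lacks the first base printed.
miR-31-5p, seed of the +1 form: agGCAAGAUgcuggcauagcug
miR-21-5p, seed of the +1 form: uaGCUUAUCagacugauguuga
No other mature mouse name searched has the +1 seed of miR-31-5p, and 1 other, miR-3965, has that of miR-21-5p, which is not among the entries analysed here.

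Shifted entries made up a small share of both names. For miR-31-5p the share was 1.17 ± 0.050% in High, 1.33 ± 0.042% in Negative, 1.32 ± 0.081% in Sublow and 1.37 ± 0.139% in Low cells (SD, n = 3 each). For miR-21-5p it was 3.06 ± 0.306% in High, 2.69 ± 0.116% in Negative, 2.72 ± 0.183% in Sublow and 2.68 ± 0.080% in Low cells (SD, n = 3 each). All 3 High libraries (1.19, 1.20 and 1.11%) lay below every other library for miR-31-5p, while High overlapped the others for miR-21-5p. Neither share passed an exact permutation test among the sorted populations (p = 0.0827 for miR-31-5p and 0.0871 for miR-21-5p, both 0.0871 adjusted over the 3 measures). Leaving out each sorted library in turn gave an unadjusted permutation p of 0.0268 to 0.267 for miR-31-5p and 0.0363 to 0.372 for miR-21-5p. It was below 0.05 only without Low 1 (0.0359) or Low 2 (0.0268) for miR-31-5p, and without High 3 (0.0363) for miR-21-5p.

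**Figure D4:**
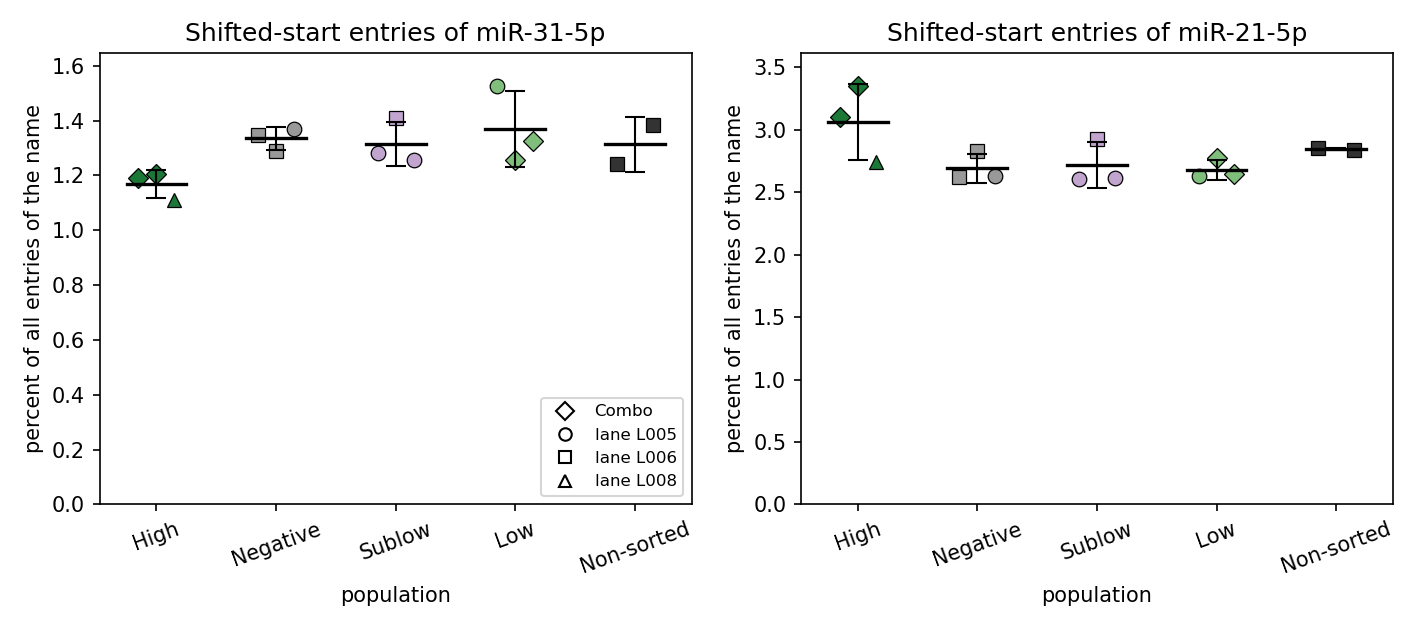
Shifted-start entries as a percent of all entries of the name, for miR-31-5p (left) and miR-21-5p (right), in each library of the High, Negative, Sublow, Low and Non-sorted groups; points are libraries with their lane code by shape, bars the mean and whiskers 1 SD. The share lies between 1.11 and 1.52% for miR-31-5p and between 2.60 and 3.35% for miR-21-5p.

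Most shifted reads began 1 base downstream. The +1 entry was 0.981 to 1.42% of its name for miR-31-5p and 1.91 to 2.28% for miR-21-5p, and the -1 entry 0 to 0.268% and 0.423 to 0.695%. The +1 entry of miR-31-5p passed in the same 4 pairs of sorted populations as the annotated entry, with log2 differences of 0.84 in Sublow and 1.14 in Negative against Low. The +1 entry of miR-21-5p passed in 4 of the 5 pairs of its annotated entry, with -1.05 in High against Low, and missed the threshold in Negative against Sublow (-0.47, adjusted p = 0.0624). The -1 entry of miR-21-5p was lower in High than in Low (-0.94, adjusted p = 0.00488), Sublow (-1.49, adjusted p = 7.51e-05) and Negative cells (-1.07, adjusted p = 0.000575). The -1 entry of miR-31-5p, listed at 0 in High 2, was lower in High than in Sublow (-2.03, adjusted p = 0.0430) and Negative cells (-2.60, adjusted p = 0.0103). High 1 and High 3 held 11.6 and 10.6 RPM, against 22.8, 15.7 and 24.0 in the Sublow libraries. The size of both differences thus rests largely on the 0 in High 2, which need not mean absence. The +2 entry of miR-21-5p was lower in High than in Low (-1.35, adjusted p = 0.00754), Sublow (-1.53, adjusted p = 0.00160) and Negative cells (-1.17, adjusted p = 0.00616), and its +4 entry passed in none of the 6 pairs. These entries share their libraries and hairpin with the annotated ones and are no separate evidence.

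The 3p arms were near the smallest value the table lists. miR-31-3p was listed in 4 of 14 libraries, at 1.28 to 4.53 RPM, and there the 5p arm was 1602 to 10573 times as abundant. miR-21-3p was listed in 10 of 14 libraries, at 2.15 to 11.1 RPM, with a 5p arm 2185 to 11815 times as abundant. A listed 0 was taken to mean fewer than about 10 reads and not absence, so the balance of the arms was not compared between populations.

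The microRNAs with profiles nearest to the members were taken from 120 abundant entries, by the root-mean-square difference of the centred log2 means over the 5 groups. Nearest to miR-21-5p was miR-185-5p, at 0.066 log2 units against a median of 0.954 over the 120. Its means were 63.7 RPM in High, 142 in Negative, 206 in Sublow, 132 in Low and 117 in Non-sorted cells. It was followed by miR-107-3p at 0.136, miR-34a-5p, known as a target of p53, at 0.166, miR-20a-5p of the miR-17-92 cluster at 0.270, and miR-103-2-3p at 0.272. miR-31-5p had no neighbour as close. Its nearest was again miR-103-2-3p at 0.224, with 1533 RPM in High, 3764 in Negative, 3822 in Sublow, 2102 in Low and 2760 in Non-sorted cells. Then came miR-1981-5p at 0.402, miR-378-5p at 0.429, miR-22-3p at 0.434 and miR-30e-3p at 0.452, against a median of 0.968, and the members themselves lay 0.479 apart. These are descriptions over 5 means from shared libraries.

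**Figure D5:**
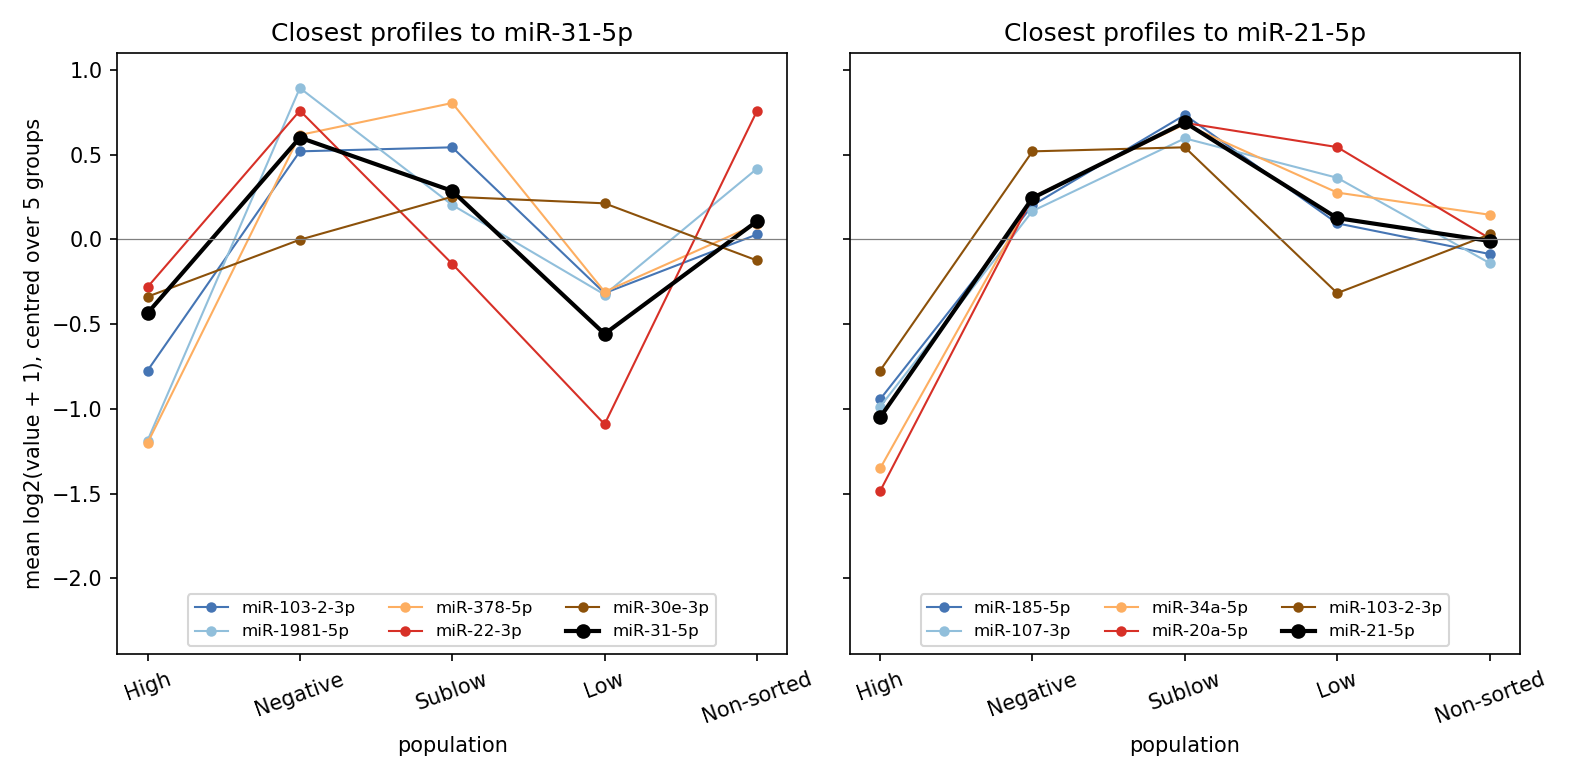
Group means of log2(value + 1), centred over the 5 groups, for miR-31-5p (left, black) and miR-21-5p (right, black) with the 5 entries of nearest profile in colour, over High, Negative, Sublow, Low and Non-sorted. The line of miR-185-5p lies 0.066 log2 units (root mean square) from that of miR-21-5p, and the nearest line to miR-31-5p, miR-103-2-3p, lies 0.224 away.

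A list of 18 further microRNAs linked to regeneration, inflammation or injury, drawn from general knowledge, was set beside the members. All 18 were in the table, and 15 were abundant enough to test. In High against Low cells 1 rose and 8 fell (7.99% and 20.1% of all entries), with a median log2 difference of -1.68 against -0.11 over all entries. miR-21-5p stood with the 8 that fell. Among these were miR-222-3p, which represses the cell cycle inhibitor p27 (-2.33, adjusted p = 7.88e-05), miR-17-5p (-2.03, adjusted p = 0.000357) and miR-20a-5p (-2.03, adjusted p = 0.00131). The 1 that rose was miR-210-3p, known for its induction by hypoxia (2.92, adjusted p = 9.28e-06).

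In Sublow against Low cells, where both members rose, 3 of the 15 rose and 6 fell (10.4% and 24.3% of all entries), with a median of -0.72 against -0.43 over all entries. miR-147-3p (1.56, adjusted p = 0.00148) and miR-210-3p (1.54, adjusted p = 0.000544) rose. miR-132-3p (-2.23, adjusted p = 0.000250) and miR-146a-5p, a feedback inhibitor of NF-kappaB signalling (-1.85, adjusted p = 0.0106), fell. miR-146a-5p did not pass there with a lane term (-0.82, adjusted p = 0.209) or with a total that leaves out miR-192, miR-194, miR-215 and miR-375 (-1.41, adjusted p = 0.0678). In Negative against Low cells 3 rose and 8 fell, where 16.5% of all entries rose and 49.5% fell, with a median of -0.91 against -0.90 over all. In Negative against Sublow cells limma called 0 higher and 6 lower, where 8.67% of all entries rose and 26.9% fell, with a median of -0.68 against -0.37. The largest change in both was that of miR-132-3p, at -4.29 (adjusted p = 2.30e-07) and -2.06 (adjusted p = 0.000385). It averaged 3.15 RPM in Negative cells, below the 10 RPM of the filter, which it passed through other groups. The size of both changes thus rests on a value near the smallest ones listed. miR-31-5p was higher in Negative than in Low cells, as were 16.5% of all entries. The list's median there was near that of all entries, so its split is not particular to the list.

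High cells had 5 of the 15 higher and 8 lower than Sublow cells, where 28.1% of all entries were higher and 22.4% lower, with a median of -1.06 against 0.07 over all. Against Negative cells 5 were higher and 6 lower, where 43.9% of all entries were higher and 22.4% lower, with a median of -0.05 against 0.57. miR-203-3p, known for its role in skin differentiation, was lower in High cells in both, as the members were (-2.40, adjusted p = 2.89e-06, and -2.94, adjusted p = 2.06e-07). miR-132-3p was higher in both, by 5.06 against Negative cells (adjusted p = 4.77e-08), a size that rests on its 3.15 RPM there. Against Non-sorted cells, 5 of the 15 were higher and 5 lower in High (36.2% and 21.4% of all entries), 4 higher and 0 lower in Sublow (16.7% and 7.31%), and 8 higher and 2 lower in Low cells (46.1% and 14.3%). In Negative cells limma called 1 of the 15, miR-132-3p, lower (-1.71, adjusted p = 0.0155), and 3.74% of all entries. That change, too, rests on the low value of miR-132-3p in Negative cells. After rescaling, the counts were 2 higher and 7 lower in High against Low, 3 and 5 in Sublow against Low, 3 and 6 in Negative against Low, 1 and 3 in Negative against Sublow, 4 and 8 in High against Sublow, and 5 and 6 in High against Negative. Against Non-sorted cells they were 5 and 6 in High, 0 and 1 in Negative, 1 and 1 in Sublow, and 5 and 3 in Low cells. Over all entries, rescaling took the number called against Non-sorted from 141 to 65 in Sublow and from 355 to 201 in Low cells. The shares of all entries given above are from before rescaling. No rescaled share stands beside the list's rescaled counts, so these counts are description only.

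The members were also read apart from a split of the libraries that cuts across the sorted populations. miR-295-3p, known from pluripotent cells, was listed at 395 to 928 RPM in 7 libraries (High 2, Negative 1, Negative 2, Sublow 2, Low 2 and both Non-sorted) and at 0 in the other 7. In the 7 libraries at 0 alone, the Negative group is the single library Negative 3, which the fit assumes to vary like the other groups. There miR-21-5p differed by -0.97 in High against Low (adjusted p = 0.00636), and miR-31-5p by 0.80 in Sublow against Low (adjusted p = 0.00159) and 1.01 in Negative against Low (adjusted p = 0.000663). miR-21-5p in Negative against Sublow, again with 1 Negative library, stood at -0.24 (adjusted p = 0.375) and did not pass.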

How the data were processed

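Small RNA libraries were prepared with a TriLink CleanTag kit, per the labels' protocols. The authors deposited 1 table of RPM values (reads scaled to a total of 1e+06 over miRNA entries) for 14 libraries. The genome build is mm9, per the submitters' processing notes, and the aligner and counter are not given in the sources used. Entries with a signed number after the name were read as shifted starts, which the header does not define. Depth was estimated from the steps between low values, with the smallest listed value assumed to stand for about 10 reads. Of the low values, 70.1 to 86.4% were whole numbers of reads within 0.1 read, too few for a count test. The best match put the smallest listed value at 9.96 to 10.9 reads, a range that the assumption largely set. The depths, read numbers and counting errors given above rest on the same assumption.

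Values were analysed as log2(value + 1), which understates folds of low entries. Entries of at least 10 RPM in at least 3 libraries, 588 in all, were fitted in 1 model of 5 groups with limma 3.58.1 (empirical Bayes with trend) in R 4.3.3, tested two-sided with Benjamini-Hochberg adjustment at 0.05. The procedure was tested on simulated data. Ratios and shares were tested by exact permutation over the sorted libraries, with the sum of squares between groups as the statistic. Python 3.11.15 with matplotlib 3.10.9 drew the figures. Lane codes were read from the labels' descriptions, and "Combo" is not defined there. The lane term took it as a lane of its own, which may not be what it marks.

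The members and lists were chosen with earlier results of these data known. Named are the members and entries of their hairpins, the 5 nearest profiles (mean of at least 100 RPM in some group), other names with their seed, and of the 18 listed microRNAs at most 4 a comparison past the threshold, by size. Marker lists are given as sums and ranges. Alternatives were the pseudocount, the filter, the scaling, the trend, summed starts, a replicate block, a lane term, leaving out each library, and, added after the data were seen, a split by miR-295-3p and the +1 entry alone.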

Additional observations from a re-analysis of the deposited data

How the results depend on the processing

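Of 284 recomputed values of 25 results on miR-31-5p and miR-21-5p (levels, their ratio and shifted shares), 253 kept their direction and side of the threshold. Median-ratio rescaling gave miR-31-5p 0.45 in High against Low, 0.81 in Negative against Sublow, 0.57 in Negative and -0.24 in Sublow against Non-sorted, and miR-21-5p 0.99 in Negative against Low, 0.047 in Negative against Sublow, 0.28 in Sublow against Non-sorted and -0.66 in Low against Non-sorted. Quantile normalization gave miR-31-5p 0.43 in High against Low, 0.82 in Negative against Sublow and -0.39 in Sublow against Non-sorted, and miR-21-5p 0.69 in Negative against Low, -0.084 in Negative against Sublow, 0.29 in Sublow and -0.48 in Low against Non-sorted. A total without miR-192, miR-194, miR-215 and miR-375 gave miR-31-5p 0.74 in Negative against Sublow, and 0.58 in Negative and -0.16 in Sublow against Non-sorted, and miR-21-5p 0.98 in Negative against Low, -0.022 in Negative against Sublow, 0.36 in Sublow against Non-sorted and -0.64 in Low against Non-sorted. A lane term left miR-31-5p short of the threshold at 0.72 in Sublow against Low, -0.56 in High against Sublow, -0.87 in High against Negative, -0.38 in High against Non-sorted and -0.53 in Low against Non-sorted, and gave miR-21-5p -0.26 in Low against Non-sorted. For miR-21-5p in Negative against Sublow, the difference was -0.45 with no filter (adjusted p = 0.0728), -0.45 with no trend (adjusted p = 0.0802) and -0.24 in the libraries with miR-295-3p at 0, where Negative 3 alone stands for its group. The cause of these changes was not tested.

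Leaving out each library changed the direction or the side of the threshold in 16 of 344 values. The ranges were 0.28 to 0.36 for miR-31-5p in Negative against Sublow, -0.89 to -0.20 in High, 0.15 to 0.84 in Negative and -0.17 to 0.52 in Sublow against Non-sorted, and, for miR-21-5p, -0.036 to 0.28 in Negative against Low, -0.54 to -0.35 in Negative against Sublow, and 0.63 to 0.77 in Sublow and -0.031 to 0.29 in Low against Non-sorted. The shifted share ranged over 0.12 to 0.26 percentage points for miR-31-5p and 0.24 to 0.54 for miR-21-5p. A lone Non-sorted library was assumed to vary like the other groups. The replicate block changed none of the 25 calls (miR-31-5p in Negative against Sublow, 0.31, adjusted p = 0.0701, and the ratio, exact permutation p = 0.00174). Same-numbered libraries share an undefined code in the labels. They deviated together (r over 0.1) in 14 of 18 pairs (median r 0.56). Pairs of different numbers did so in 11 of 36 (median -0.41). Deviations from a group mean sum to 0, which lowers the second median when the first is up, so the second is no independent baseline. Since 4 pairs fell short and the code is undefined, the libraries were not taken as paired. Counts of called entries moved by over 1.5 times in 31 cases. As reported they were 165 in High, 204 in Sublow and 388 in Negative against Low, 209 in Negative and 297 in High against Sublow, 390 in High against Negative, 339 in High, 141 in Sublow and 355 in Low against Non-sorted, and 425 among the sorted populations. A filter of 100 RPM gave 100 in High and 198 in Negative against Low, 170 in High against Sublow, 188 in High against Negative, 178 in High and 193 in Low against Non-sorted, and 207 among the sorted populations. Summing all starts gave 100 in High, 115 in Sublow and 184 in Negative against Low, 113 in Negative and 163 in High against Sublow, 182 in High against Negative, 164 in High, 77 in Sublow and 173 in Low against Non-sorted, and 205 among the sorted populations. A lane term gave 130 in Sublow against Low, 159 in High against Sublow, 239 in High against Negative, and 157 in High, 68 in Sublow and 182 in Low against Non-sorted. Against Non-sorted, rescaling gave 65 in Sublow and 201 in Low, and the reduced total 73 in Sublow and 213 in Low. Sublow against Non-sorted had 81 with no filter, 76 without Sublow 3 and 56 without Non-sorted 2, and Negative against Sublow had 129 in the libraries with miR-295-3p at 0.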
